A study of Mus musculus with 10 samples.

Results

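Immediate early genes are the genes whose transcripts appear within minutes of a nerve cell firing, before any new protein has been made. Calcium entry through NMDA receptors and calcium channels activates kinases that act on transcription factors already present, such as CREB, SRF and MEF2, which then switch these genes on. In the amygdala they are widely used as markers of cells activated by fear learning and stress. The set described here holds 10 such genes. They are the AP-1 subunit genes Fos, Fosb and Junb, the zinc finger transcription factor genes Egr1, Egr2 and Egr3, the transcription factor genes Npas4 and Nr4a1, the synaptic protein gene Arc, and Ptgs2, which encodes the inducible cyclooxygenase.

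A member was measured through probe sets annotated to exactly 1 gene symbol. This gave 97 probe sets of 1256831 on the array, and 85 of the 97 lay above the intensity filter, a mean of 4.94 on the log2 scale. All 10 genes had at least 3 such probe sets and were among the 16367 genes tested. No probe set shared between genes carried a member's symbol.

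The samples were neuropsin-/- mice and wild-type mice, both 3 months old, with 5 arrays of each genotype. Neuropsin is the secreted serine protease encoded by Klk8, and the neuropsin-/- line had been crossed back to C57BL/6 for 12 generations, the strain of the wild-type mice. Each array held RNA of dissected amygdala pooled from 3 animals, so an array averages over animals and over all cell types of the tissue. No learning task, stressor or drug is recorded for either genotype, and all animals were anaesthetised and perfused before dissection. A gene level here is the mean of the gene's probe sets on the log2 scale, and a difference of 1 on that scale is a doubling. Levels of different genes come from different probes and were not set against each other. In such bulk tissue, fewer cells of a type and less RNA per cell cannot be told apart.

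Array medians over all probe sets lay between 4.95 and 5.03. Wild-type arrays 4 and 5 were set off on the first principal component of all gene levels (20.5 and 23.5). The remaining 8 arrays ranged from -14.2 to 7.45. In both genotypes arrays 1 and 3 were lowest on it and arrays 4 and 5 highest, with knockout arrays 4 and 5 at 7.45 and 3.14. The mean profile of the 10 genes had a correlation of 0.012 with that component once genotype means were removed. Klk8 itself averaged 5.02 ± 0.29 in the knockout and 5.17 ± 0.27 in wild type (SD, n = 5 each) over its 9 probe sets, a difference of -0.15 (exact permutation test, two-sided, p = 0.413). The median over the 9 probe sets gave -0.61 (exact permutation p = 0.0794), and the mean ranged from -0.25 (wild-type array 3 left out) to -0.045 (knockout array 2 left out). Which exons the deletion removed is not stated in the labels, so probe sets that lie elsewhere in the gene cannot check the genotype. Neuron markers were well represented in both genotypes, with a mean level over 8 of 9 markers of 9.80 to 9.94 on knockout arrays and at least 9.74 on wild-type arrays. All 10 markers of the basolateral amygdala and 8 of 10 markers of the central and medial amygdala lay above the filter. So did 8 of 10 striatum markers and 8 of 10 hypothalamus markers, so passing the filter cannot identify the tissue.

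The start sites of these genes are shown because several of the genes varied together between arrays, as described further on. RefSeq promoter windows on GRCm38.p6, 250 bases before to 50 bases after the transcript start, were at hand for 7 of the 10 genes (Fos, Fosb, Junb, Egr2, Npas4, Nr4a1 and Ptgs2), with 11 windows in all, 5 of them of Egr2. Fos and Junb belong to a group of genes, described further on, that was chosen after the correlations were seen. Nr4a1 and Ptgs2 do not belong to it. Capitals mark the 5-base core of the cAMP response element, TGACG, or its complement CGTCA where it lies on the other strand. The windows of the 4 genes, 5′ to 3′ on the strand of the gene, are the following.
Fos, chr12:85473640-85473939, plus strand: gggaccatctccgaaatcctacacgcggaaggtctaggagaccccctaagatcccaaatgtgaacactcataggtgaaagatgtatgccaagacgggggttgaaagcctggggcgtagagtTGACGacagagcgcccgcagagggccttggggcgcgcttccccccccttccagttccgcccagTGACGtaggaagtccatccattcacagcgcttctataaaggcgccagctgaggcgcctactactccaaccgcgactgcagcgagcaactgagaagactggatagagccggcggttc
Junb, chr8:84978699-84978998, minus strand: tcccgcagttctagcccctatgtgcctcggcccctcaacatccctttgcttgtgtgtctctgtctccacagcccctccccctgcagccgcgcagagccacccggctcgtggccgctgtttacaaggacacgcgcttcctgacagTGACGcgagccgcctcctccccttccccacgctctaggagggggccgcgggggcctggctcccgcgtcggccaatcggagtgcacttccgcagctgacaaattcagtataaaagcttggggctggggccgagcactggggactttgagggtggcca
Nr4a1, chr15:101266596-101266895, plus strand: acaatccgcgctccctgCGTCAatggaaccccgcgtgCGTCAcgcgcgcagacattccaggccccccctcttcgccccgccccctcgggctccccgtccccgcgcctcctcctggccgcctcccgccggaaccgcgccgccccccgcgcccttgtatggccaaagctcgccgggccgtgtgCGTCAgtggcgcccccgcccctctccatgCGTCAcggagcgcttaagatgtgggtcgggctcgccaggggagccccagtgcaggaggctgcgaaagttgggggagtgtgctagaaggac
Ptgs2, chr1:150099781-150100080, plus strand: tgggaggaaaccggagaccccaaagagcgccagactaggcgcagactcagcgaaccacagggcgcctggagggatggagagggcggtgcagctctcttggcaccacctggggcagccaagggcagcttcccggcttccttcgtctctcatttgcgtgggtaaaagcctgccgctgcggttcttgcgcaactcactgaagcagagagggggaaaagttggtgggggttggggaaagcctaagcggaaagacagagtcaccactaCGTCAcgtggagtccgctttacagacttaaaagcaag

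Counting from the first base of the RefSeq transcript as 1, the Fos window holds the core at -129 and at -66, and the Junb window at -106. The Nr4a1 window holds it 4 times on the minus strand, starting at -233, -213, -69 and -40. The Ptgs2 window holds it on the minus strand at 14, inside the annotated transcript. These positions follow the annotated start, and the start used in this tissue was not measured. All 7 genes with a window had the core in at least 1 window, and 9 of their 11 windows did, while 20.8% of the 32851 windows of all genes hold it on either strand. The full element TGACGTCA was in none of the members' windows and in 1.79% of all windows. The CArG box, the site of the serum response factor SRF, was found in windows of Egr2 and in 1.63% of all windows. No other member with a window had it there. Sequence outside the windows, and that of Egr1, Egr3 and Arc, was not searched. The EGR motif GCGGGGGCG was in the windows of Fosb and Nr4a1 (2.91% of all windows). The TATA box TATAAA was in the windows of Fos, at -33, and Junb, at 1, inside the annotated transcript (13.6% of all windows). These matches describe letters in a window, not occupied sites.

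None of the 10 genes passed the test between genotypes. Over all 16367 genes 4 passed, or 0.0244% (limma, two-sided, Benjamini-Hochberg adjusted p under 0.05), so a count of 0 of 10 is near that background. At an unadjusted limma p under 0.05 there were 2 of the 10, Egr1 and Ptgs2, where 6.98% of all genes reached it. For every one of the 10 genes the knockout arrays overlapped the wild-type arrays, and the arrays of the genotypes were fully apart in 1.55% of all genes. The differences, knockout minus wild type, were negative for 6 genes and positive for 4, with a median of -0.05. Over all genes 50.7% of differences were negative, and the median was -0.00188. The 95% intervals of the 10 genes together ran from 0.770-fold to 1.36-fold. Smaller differences were not resolved with 5 arrays per genotype.

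**Figure D1:**
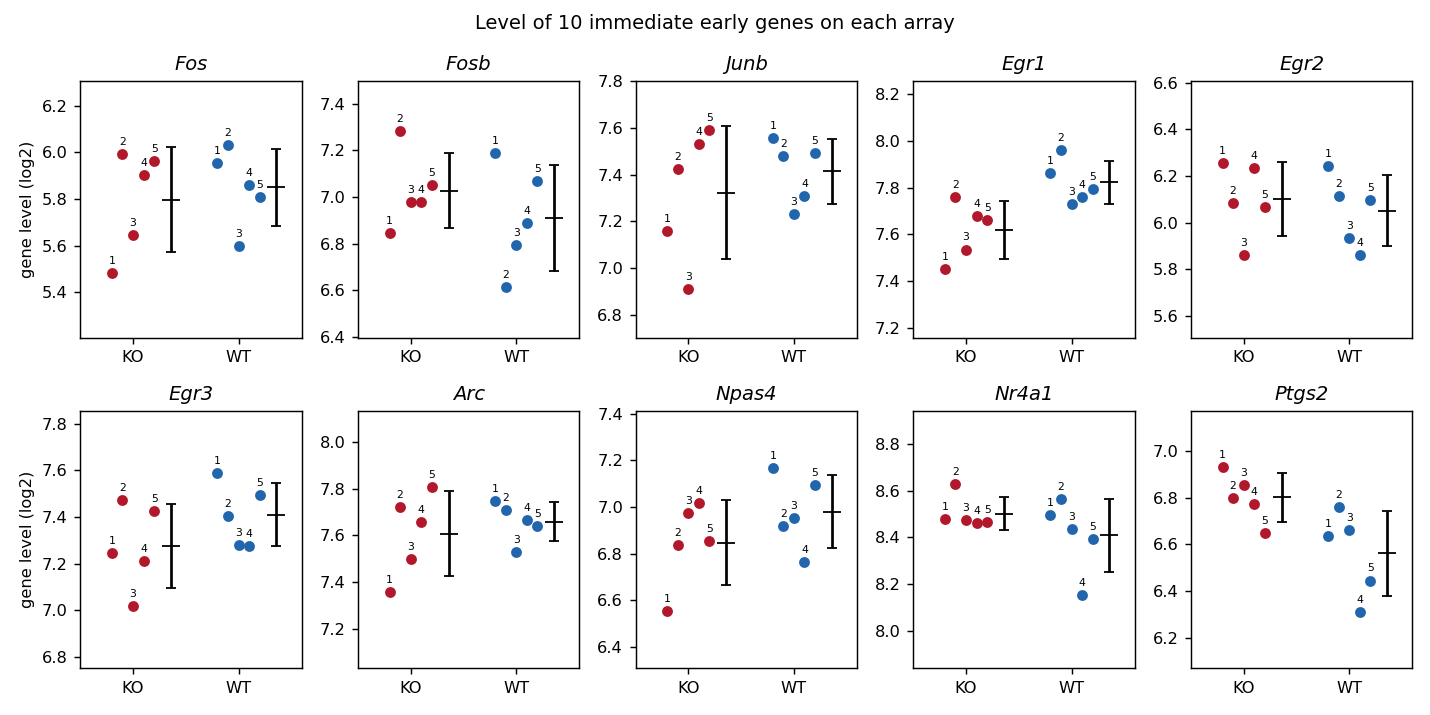
Level of each immediate early gene on every array, as the mean log2 value of its probe sets, with knockout (KO) arrays on the left of each panel and wild-type (WT) arrays on the right. Numbers are replicate numbers, the bars show mean ± SD of 5 arrays, and every panel spans its own log2 range. In all 10 panels the KO and WT points overlap.

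Fos encodes the AP-1 subunit c-Fos, which pairs with Jun proteins. Its level was 5.48, 5.99, 5.64, 5.90 and 5.96 on knockout arrays 1 to 5, against 5.96, 6.03, 5.60, 5.86 and 5.81 on wild-type arrays 1 to 5. Knockout arrays 1 and 3 and wild-type array 3 were low, and the other 7 arrays lay between 5.81 and 6.03, so the variation ran within the genotypes. The means were 5.80 ± 0.22 in the knockout and 5.85 ± 0.17 in wild type (SD, n = 5 each), and the difference was -0.05 with a 95% interval of -0.29 to 0.19. Without knockout array 1 this difference was 0.025.

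Fosb encodes another Fos protein, known also for the stable splice form that builds up with repeated stimulation. It lies on chromosome 7, the chromosome of Klk8. Its level was 6.85, 7.28, 6.98, 6.98 and 7.05 on the knockout arrays and 7.19, 6.61, 6.79, 6.89 and 7.07 on the wild-type arrays. The array numbered 2 was the highest of the knockout and the lowest of wild type, and the ranges covered each other for the most part. The difference was 0.12, with an interval of -0.12 to 0.36. It was 0.053 without knockout array 2, 0.041 without wild-type array 2 and 0.19 without wild-type array 1.

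Junb encodes a Jun family subunit that pairs with Fos proteins. Its level was 7.16, 7.43, 6.91, 7.53 and 7.59 on the knockout arrays and 7.56, 7.48, 7.23, 7.31 and 7.49 on the wild-type arrays. The knockout arrays held both the highest and the lowest value, with an SD of 0.28 against 0.14 in wild type. The difference was -0.09, with an interval of -0.35 to 0.17, and it was 0.013 without knockout array 3.

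Egr1, also known as Zif268, encodes a zinc finger transcription factor used as a marker of synaptic plasticity. Its level was 7.45, 7.76, 7.53, 7.68 and 7.66 on the knockout arrays, against 7.86, 7.96, 7.73, 7.76 and 7.79 on the wild-type arrays. Wild-type arrays 1, 2, 4 and 5 lay above all knockout arrays, array 4 only just, while wild-type array 3 lay below knockout array 2. The means were 7.62 ± 0.12 in the knockout and 7.82 ± 0.09 in wild type (SD, n = 5 each), which differed by -0.20 (SE 0.08, interval -0.38 to -0.03). It did not pass over all genes (limma adjusted p = 0.693, unadjusted p = 0.0228).

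Egr2 and Egr3 encode relatives of Egr1 that bind the same kind of site. Egr2 was at 6.25, 6.08, 5.86, 6.24 and 6.07 on the knockout arrays and at 6.24, 6.12, 5.93, 5.86 and 6.10 on the wild-type arrays. Egr3 was at 7.25, 7.47, 7.02, 7.21 and 7.43 on the knockout arrays and at 7.59, 7.41, 7.28, 7.28 and 7.50 on the wild-type arrays. Knockout array 3 was the lowest knockout array for both genes, and wild-type array 1 was the highest wild-type array for both. The difference was 0.05 for Egr2 (interval -0.16 to 0.26) and -0.13 for Egr3 (interval -0.34 to 0.07). Of these 3 Egr genes, 1 averaged above and 2 below wild type, without a call. Leaving out knockout array 3 gave 0.11 for Egr2 and -0.070 for Egr3, and leaving out wild-type array 4 gave 0.0029 for Egr2.

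Arc encodes a protein that travels to active synapses and promotes removal of AMPA receptors. Its level was 7.35, 7.72, 7.50, 7.66 and 7.81 on the knockout arrays, against 7.75, 7.71, 7.53, 7.67 and 7.64 on the wild-type arrays. Knockout arrays 1 and 3 and wild-type array 3 were again the lowest, as they were for Fos. The means were 7.61 ± 0.18 in the knockout and 7.66 ± 0.08 in wild type (SD, n = 5 each), and the difference was -0.05 with an interval of -0.25 to 0.14. Without knockout array 1 it was 0.012, and with the median over probe sets it was -0.26.

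Npas4 encodes a neuronal transcription factor that responds to calcium entry and controls genes of inhibitory synapses. Its level was 6.56, 6.84, 6.98, 7.02 and 6.85 on the knockout arrays and 7.17, 6.92, 6.95, 6.77 and 7.09 on the wild-type arrays. Wild-type arrays 1 and 5 were above all knockout arrays and knockout array 1 was below all others, with the remaining arrays mixed. The difference was -0.13, with an interval of -0.35 to 0.08. It was -0.059 without knockout array 1, -0.085 without wild-type array 1 and -0.019 with the median over probe sets.

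Nr4a1 encodes the orphan nuclear receptor Nur77. Its level was 8.48, 8.63, 8.48, 8.46 and 8.47 on the knockout arrays and 8.49, 8.56, 8.43, 8.15 and 8.39 on the wild-type arrays. Apart from knockout array 2 the knockout arrays lay close together, and wild-type array 4 was far below all others. The difference was 0.09, with an interval of -0.09 to 0.27. It was 0.030 without wild-type array 4 and 0.0045 without wild-type arrays 4 and 5.

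Ptgs2 encodes cyclooxygenase-2, the enzyme that makes prostaglandin precursors in excitatory neurons after synaptic activity. Its level was 6.93, 6.80, 6.85, 6.77 and 6.65 on the knockout arrays, against 6.64, 6.76, 6.66, 6.31 and 6.44 on the wild-type arrays. Knockout arrays 1 to 4 were above all wild-type arrays, and knockout array 5 lay among the higher wild-type values. The means were 6.80 ± 0.11 in the knockout and 6.56 ± 0.18 in wild type (SD, n = 5 each), which differed by 0.24 (SE 0.09, interval 0.04 to 0.44). It did not pass over all genes (limma adjusted p = 0.693, unadjusted p = 0.0223), and the other 8 genes had limma adjusted p-values of 0.809 to 0.938. Wild-type arrays 4 and 5 were the 2 lowest for Ptgs2, and without them the difference was 0.12. Without the intensity filter it was 0.15.

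**Figure D2:**
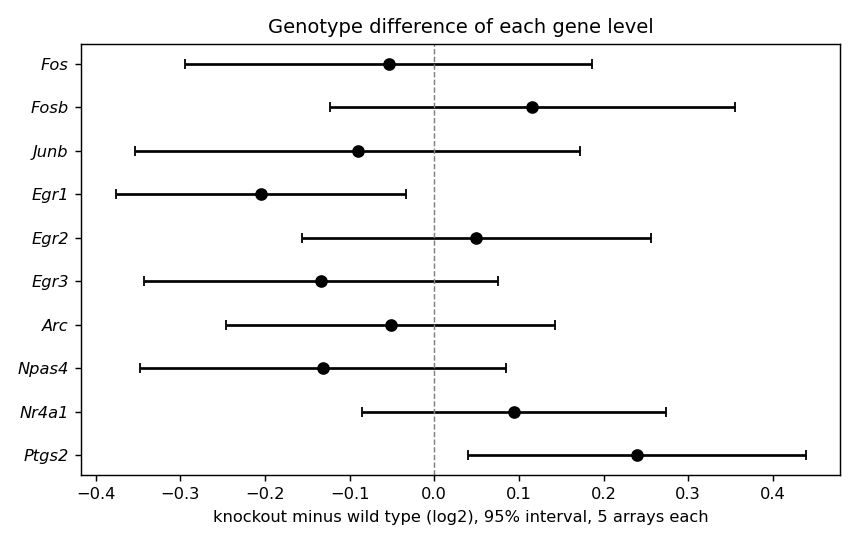
Difference between knockout and wild type in the level of each immediate early gene (log2, knockout minus wild type), with limma's 95% interval over 5 arrays of each genotype. The intervals of Egr1 (-0.38 to -0.03) and Ptgs2 (0.04 to 0.44) leave out 0 before adjustment, and the other 8 include it.

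Some marker lists differed between genotypes beside these values. Markers of the hypothalamus, which neighbours the amygdala in a coronal slice, had a mean level of 5.72 to 6.01 on knockout arrays and 6.21 to 6.74 on wild-type arrays. All 8 measured of 10 were lower in the knockout, and 6 had an unadjusted limma p under 0.05, beside 6.98% of all genes. None passed (smallest limma adjusted p = 0.270), and Hcrt and Nkx2-1 were below the filter. With genotype means removed, the mean of these 8 genes had a correlation of 0.755 with the mean profile of the 10 immediate early genes over the 10 arrays. Basolateral amygdala markers were higher in the knockout in 10 of 10, at 8.18 to 8.25 on knockout arrays and 7.87 to 8.17 on wild-type arrays, and their mean correlated with the immediate early profile at 0.421. The 2 measured of 5 blood markers were both lower in the knockout, at a mean of 6.58 to 6.95 on knockout arrays and 7.27 to 8.27 on wild-type arrays, and 1 of them, the beta-globin gene Hbb-b1, passed. Striatum markers were lower in 8 of 8 measured genes (median difference -0.23), oligodendrocyte markers in 9 of 9 (-0.28), central and medial amygdala markers in 8 of 8 (-0.15) and microglia markers in 8 of 8 (-0.061). No gene of these 4 lists passed, and on all 4 the mean levels of the genotypes overlapped. Over all genes 50.7% were lower in the knockout and 0.0244% passed. The part of the marker lists in the genotype differences of the immediate early genes was not tested. Their correlation with Fos across arrays is given further on, except for the blood markers.

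When probe sets were tested singly, 0 of the 85 above the filter changed, where 15 of all 628415 tested did (0.00239%). At an unadjusted limma p under 0.05 there were 8 of the 85, or 9.41%, beside 5.97% of all tested probe sets. Of the 8, 5 belonged to Egr1, 2 to Ptgs2 and 1 to Fos. Egr1 had 13 of its 16 probe sets lower in the knockout, Ptgs2 had 11 of 12 higher, and Npas4 had 12 of 13 lower. All 5 probe sets of Fosb were higher, all 5 of Junb and all 4 of Egr3 were lower, and Fos had 5 of 7 higher although its mean was lower. Probe sets of a gene share its transcripts and are not independent counts.

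In 2 probe sets, both of Egr1, the knockout arrays lay fully below the wild-type arrays, which occurred in either direction in 1.1% of all tested probe sets. Probe set 5279861 was at 4.74, 5.35, 5.36, 5.75 and 5.13 on the knockout arrays, against 5.88, 5.78, 5.77, 6.20 and 6.00 on the wild-type arrays. The lowest wild-type value lay just above the highest knockout value. The difference was -0.66 with an SE of 0.19 (limma adjusted p = 0.770). Probe set 4344290 was at 6.50, 6.67, 6.44, 6.45 and 6.76 on the knockout arrays, against 6.83, 7.50, 6.99, 7.01 and 6.80 on the wild-type arrays, a difference of -0.46 with an SE of 0.17 (limma adjusted p = 0.811). Of the remaining Egr1 probe sets of smallest p, 5303263 differed by -0.45, 4736839 by -0.62 and 5344741 by -0.78. The Egr1 probe sets with an unadjusted limma p under 0.05 had wild-type means of 5.80 to 7.72. Brighter Egr1 probe sets, with wild-type means of 8.29 to 10.68, differed by only -0.21 to -0.02. The rest, with wild-type means of 5.75 to 7.31, differed by -0.01 to 0.35.

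For Ptgs2, probe set 5334843 was at 7.70, 7.32, 6.83, 6.99 and 7.69 on the knockout arrays, against 6.76, 6.94, 7.23, 6.28 and 6.47 on the wild-type arrays. Knockout arrays 1, 2 and 5 lay above all wild-type arrays, and the other 2 overlapped them. The difference was 0.57 with an SE of 0.23 (limma adjusted p = 0.827), and probe set 4650486 differed by 0.39. In Fos, probe set 5126137 differed by -0.61 while the other 6 lay between -0.28 and 0.16. Taking the median rather than the mean of the Fos probe sets gave a difference of 0.16.

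**Figure D3:**
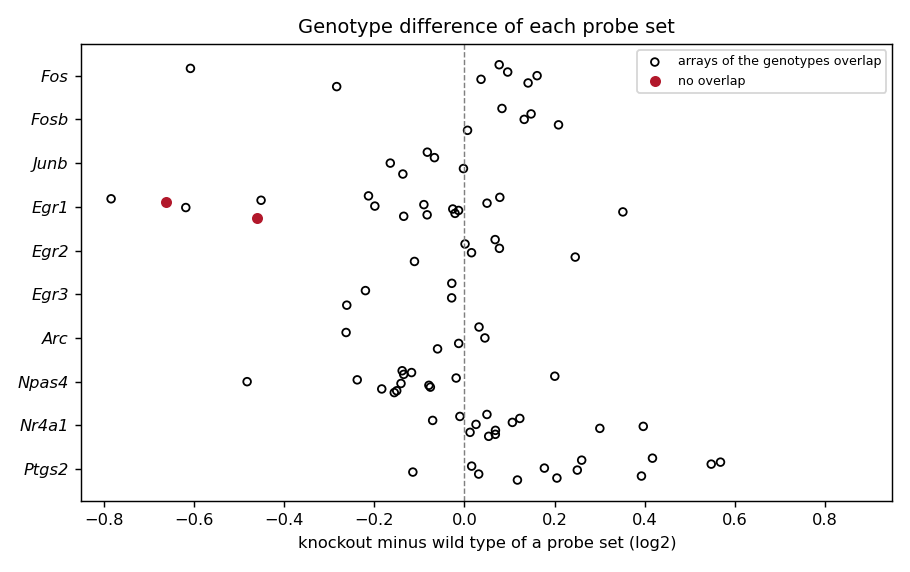
Difference between knockout and wild type (log2, knockout minus wild type) of each of the 85 probe sets above the filter, 1 row per gene, with small vertical offsets for legibility. Filled points mark the 2 probe sets of Egr1 in which all knockout arrays lay below all wild-type arrays.

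Arrays of the same genotype also differed from each other, and for some of these genes they did so together. The SD within genotype was 0.223 for Junb, larger than in 83.7% of all genes, and 0.197 for both Fos and Fosb, larger than in 74.6% and 74.5%. At the other end Egr1 had an SD of 0.109, at the 21.9th percentile, and Nr4a1 one of 0.121, at the 29.7th. The median over the 10 genes was 0.158, beside 0.151 over all genes, so the set as a whole varied about as much as other genes. Probe sets of a gene followed each other to different degrees. The median correlation of a probe set with the rest of its gene was 0.626 in Junb, 0.611 in Npas4 and 0.581 in Arc, against 0.274 in Egr2, 0.296 in Fos and 0.328 as the median of all genes.

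Fos, Egr1 and Arc ran together across the arrays. With the genotype mean removed, Fos was at -0.32, 0.20, -0.15, 0.11 and 0.17 on knockout arrays 1 to 5 and at 0.11, 0.18, -0.25, 0.01 and -0.04 on wild-type arrays 1 to 5. Egr1 was at -0.17, 0.14, -0.08, 0.06 and 0.05 on the knockout arrays and at 0.04, 0.14, -0.09, -0.06 and -0.03 on the wild-type arrays. Arc was at -0.25, 0.11, -0.11, 0.05 and 0.20 on the knockout arrays and at 0.09, 0.05, -0.13, 0.01 and -0.02 on the wild-type arrays. In all 3 genes knockout arrays 1 and 3 and wild-type array 3 were low, and knockout arrays 2, 4 and 5 and wild-type arrays 1 and 2 were high.

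The correlation of Fos with Egr1 was r = 0.936 over the 10 arrays (Spearman rho = 0.976), with an exact permutation p of 0.000347, or 0.0156 after adjustment over all 45 pairs of the 10 genes. For rho the adjusted p was 0.0188. Fos with Arc gave r = 0.943 (rho = 0.915), an exact permutation p of 0.000694 and an adjusted p of 0.0156, or 0.0391 for rho. Arrays were permuted within genotype, two-sided, which allows 14400 arrangements. Without knockout array 1 and wild-type array 3, the 2 arrays farthest from the median of Fos, r was 0.911 for Fos with Egr1 and 0.877 for Fos with Arc. Without wild-type arrays 4 and 5, r was 0.968 for Fos with Egr1 and 0.943 for Fos with Arc. Among all 16366 other genes, Egr1 stood at place 7 and Arc at place 4 by correlation with Fos, so genes outside the set followed Fos as closely.

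Both calls depended on how the gene level was formed and on the number of arrays. With the median over probe sets, r was -0.048 for Fos with Egr1 (adjusted p = 0.928) and 0.64 for Fos with Arc (adjusted p = 0.602). With median polish r was 0.691 for Fos with Egr1 (adjusted p = 0.331) and 0.874 for Fos with Arc (adjusted p = 0.0766). Without the intensity filter Fos with Egr1 had r = 0.872 (adjusted p = 0.102), all from exact permutation. Of the 7 probe sets of Fos, 6 correlated with Egr1 at 0.326 to 0.815 and with Arc at 0.477 to 0.960, while probe set 5126137 ran at -0.248 with Egr1 and at -0.422 with Arc. The Fos signal was weak, with probe set means of 5.00 to 6.95 where the filter lay at 4.94. Its brightest probe set, 4817672, correlated at 0.441 with Egr1 and 0.496 with Arc, and the next, 4482940, at 0.768 and 0.679. Probe set 4392129, which followed Arc at 0.960, had a mean of 5.38. With any 1 probe set of Fos left out, r stayed at 0.789 to 0.960 with Egr1 and at 0.855 to 0.941 with Arc. Leaving out any 1 array kept r at 0.897 to 0.965 for Fos with Egr1 and at 0.905 to 0.970 for Fos with Arc. Neither pair passed the adjusted threshold without knockout array 1, 3 or 4 or wild-type array 3, or without wild-type arrays 4 and 5. Fos with Egr1 also missed it without knockout array 2 or 5. With replicate numbers as a block, r was 0.934 for Fos with Egr1 and 0.970 for Fos with Arc. Neither pair passed then (exact permutation adjusted p = 0.513 for both). Only 5 differences were left to permute, so a call was hardly possible in this setting. The smallest exact permutation adjusted p of any pair was 0.375. Arrays sharing a number correlated at 0.08 to 0.41, and the numbers were not taken to pair them.

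**Figure D4:**
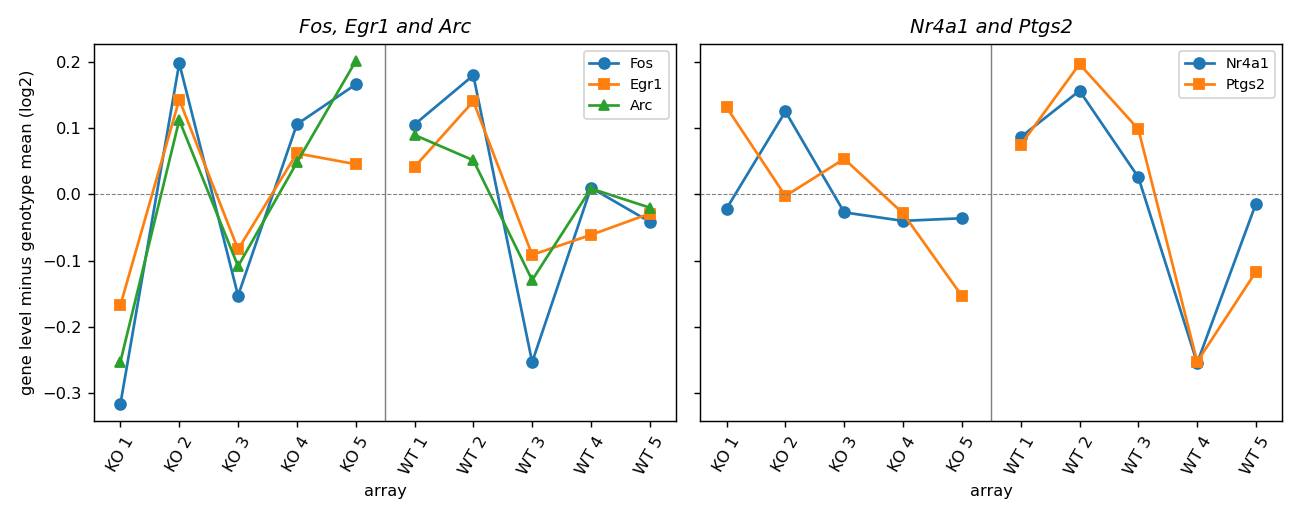
Gene level minus its genotype mean (log2) on each knockout (KO) and wild-type (WT) array, for Fos, Egr1 and Arc on the left and Nr4a1 and Ptgs2 on the right; lines only connect points of a gene, since replicates have no order. Fos, Egr1 and Arc are all low on KO 1, KO 3 and WT 3, and Nr4a1 and Ptgs2 are both lowest on WT 4 within wild type.

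Over the 45 pairs of the set, 40 had r above 0, and the 5 below 0 all involved Ptgs2. The median r was 0.368, where the median over all pairs of genes on the array was 0.108. There were 3 pairs with r of at least 0.8, or 6.67%, beside 3.03% of all gene pairs, and the third was Egr1 with Arc at 0.829 (rho = 0.855, exact permutation adjusted p = 0.136). For Egr1 with Arc r was 0.089 with the median over probe sets and 0.571 with the stricter filter. Fos, Egr1, Arc, Junb and Egr3, grouped after their values were seen, had r of 0.583 to 0.943 in their 10 pairs. Some pairs outside this group lay within that range, such as Nr4a1 with Ptgs2 at 0.751 and Fosb with Egr3 at 0.627. Junb with Egr3 had r = 0.796 (rho = 0.697, exact permutation adjusted p = 0.188), Junb with Arc 0.791 (rho = 0.818, adjusted p = 0.214) and Fos with Junb 0.769 (rho = 0.697, adjusted p = 0.214). Only the pairs Fos with Egr1 and Fos with Arc passed, and 7 pairs had an unadjusted exact permutation p under 0.05. The shares of all gene pairs with r above 0 or with such a p were not determined. These counts therefore have no background to be read against. The 45 values share 10 arrays and are not independent of each other.

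Set against the mean of the other 9 genes, Egr1 had r = 0.807, Egr3 0.794, Junb 0.766, Fos 0.731 and Arc 0.726, each higher than for at least 97.4% of all genes. Nr4a1 had 0.527, Egr2 0.480, Npas4 0.440 and Fosb 0.420. Ptgs2 stood apart, at -0.094. Its correlation with the other members had a median of -0.08 and was lowest with Arc, at -0.402. Npas4 had no pair above 0.50 and none below 0.0118, and Fosb ranged from -0.395 to 0.627.

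Among the other members, Ptgs2 had its highest correlation with Nr4a1, and the next highest, with Egr2, was 0.359. On the knockout arrays the centred level of Nr4a1 was -0.02, 0.12, -0.03, -0.04 and -0.04 and that of Ptgs2 0.13, -0.00, 0.05, -0.03 and -0.15, with the highest array not shared. On the wild-type arrays Nr4a1 was at 0.09, 0.16, 0.03, -0.25 and -0.01 and Ptgs2 at 0.07, 0.20, 0.10, -0.25 and -0.12, with array 2 high and array 4 low in both. Over the 10 arrays r was 0.751 (rho = 0.685, exact permutation p = 0.0333, adjusted p = 0.214). It was 0.692 without wild-type array 4 and knockout array 2, the 2 arrays farthest from the median of Nr4a1. Without wild-type array 4 alone it was 0.463 and without wild-type arrays 4 and 5 it was 0.226, so it rested mainly on those arrays.

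**Figure D5:**
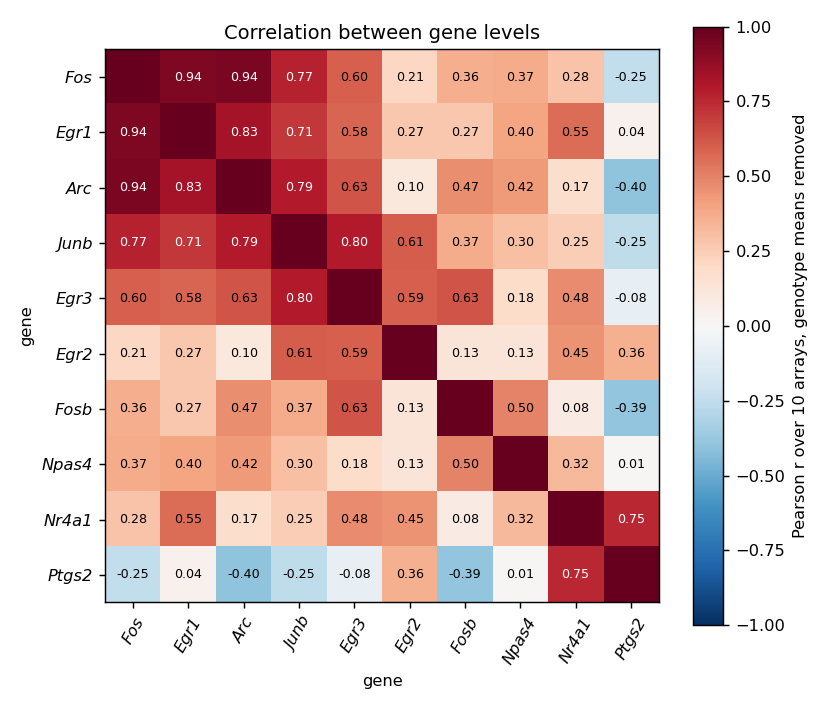
Pearson correlation between the levels of each pair of immediate early genes over the 10 arrays, with genotype means removed; colour and number give r, with genes on both axes. Fos, Egr1, Arc, Junb and Egr3 have r of 0.583 to 0.943 among themselves, and the only values below 0 are those of Ptgs2.

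The genes outside the set whose profile over the 10 arrays was most like the mean of the 10, with genotype means removed, were Emc8 (r = 0.985), Csdc2 (0.965), A230103J11Rik (0.935), Cox8a (0.933), Adgrl1 (0.933), Ppp4c (0.933), Gm7290 (0.925), Cic (0.922), Cdk5r2 (0.921) and Soga1 (0.914). Emc8 belongs to the membrane protein insertase of the endoplasmic reticulum, Cox8a a subunit of cytochrome c oxidase, Adgrl1 an adhesion receptor of neurons, Cic a transcriptional repressor and Cdk5r2 an activator of the kinase Cdk5. The median gene had r = 0.145, and 1.06% of genes had r of at least 0.8. None of the 10 changed between genotypes (limma, differences of -0.19 to 0.07, adjusted p of 0.693 or more).

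Other rapidly induced genes were described by a list of 38, of which 36 were tested and Ier2 and Arl4d were not. Of the 36, 15 were lower and 21 higher in the knockout, 0 changed, and the median difference was 0.03. An unadjusted limma p under 0.05 was reached by 1 of them, or 2.78%, beside 6.98% of all genes, and 41.7% were lower, beside 50.7% of all genes. Per1, a clock gene that also responds to light and calcium, was at 7.99 ± 0.10 in the knockout and 7.75 ± 0.09 in wild type (SD, n = 5 each), a difference of 0.23 with an SE of 0.07 (limma adjusted p = 0.644). Gadd45g differed by 0.21, Nr4a2 by 0.26 and Mcl1 by -0.17. The median correlation of the list with the mean profile of the 10 genes was 0.324, higher than the 0.145 of all genes. Per1 (0.843) and Jun (0.811) had the highest values of the list. A high median was not particular to rapid genes, since it was 0.375 for hypothalamus markers and 0.348 for astrocyte markers. The other marker lists ranged from -0.226 (striatum) to 0.254 (central and medial amygdala). With Fos alone, Dusp5, a phosphatase of ERK, had r = 0.902, Fbxo33 0.815 and Per1 0.788, as descriptions over the 10 arrays.

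Delayed activity genes, which encode secreted and synaptic proteins that follow the early wave, were all 23 tested. Of these 9 were lower and 14 higher in the knockout, 0 changed, and the median difference was 0.02. An unadjusted limma p under 0.05 was reached by 2 of them, or 8.70%, beside 6.98% of all genes, and 39.1% were lower, beside 50.7%. Nrn1, neuritin, differed by 0.26 (SE 0.10), the enkephalin gene Penk by -0.32 (SE 0.15), the cell cycle inhibitor gene Cdkn1a by 0.37 (SE 0.19) and the dynorphin gene Pdyn by -0.27 (SE 0.14). Penk is also on the list of striatum markers and is counted in both lists. The median correlation of the delayed activity genes with the mean profile of the 10 genes was 0.077, lower than the 0.145 of all genes.

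Upstream signalling and transcription factors, the receptors, channels, kinases and factors that switch the set on, had 38 of 40 tested. Of these 10 were lower and 28 higher, 0 changed, and the median difference was 0.05. An unadjusted limma p under 0.05 was reached by 8 of them, or 21.1%, beside 6.98% of all genes, and 26.3% were lower, beside 50.7%. The NMDA receptor subunit gene Grin2b was at 9.68 ± 0.07 in the knockout and 9.44 ± 0.05 in wild type (SD, n = 5 each), a difference of 0.24 with an SE of 0.07 (limma adjusted p = 0.582). Grin2a differed by 0.21 and the calcium channel gene Cacna1d by 0.19, and in all 3 genes the knockout arrays lay above the wild-type arrays. The genotypes were fully apart in 5 of the 38 genes, beside 1.55% of all genes. Mef2a, a transcription factor gene on chromosome 7, differed by -0.22. The median correlation of the list with the mean profile was 0.072.

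Partners and repressors of the set, such as other Jun proteins, the Egr corepressors Nab1 and Nab2, and prostaglandin synthases and receptors, had 21 of 22 tested, Junb among them. Of these 9 were lower and 12 higher, 0 changed and 0 had an unadjusted limma p under 0.05, beside 6.98% of all genes. Their median difference was 0.02, and 42.9% were lower, beside 50.7% of all genes. The prostaglandin receptor gene Ptger4 differed by -0.22 (SE 0.10), Fosl1 by -0.18 (SE 0.11), Jund by -0.12 (SE 0.08) and Ptges3 by 0.11 (SE 0.09). The list's median correlation with the mean profile was 0.077.

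Of the 9 marker lists tested, which leave out the blood markers, none followed Fos across arrays beyond the adjusted threshold. The correlation of the hypothalamus markers with the mean profile of the 10 genes, 0.755, was not tested. The highest correlation with Fos among 9 lists was that of the hypothalamus markers, at r = 0.503 (rho = 0.564, exact permutation p = 0.126, adjusted p = 0.845 over the 9 lists), and it was 0.571 without knockout array 1 and wild-type array 3. The neuron markers had r = -0.156 (rho = -0.103, exact permutation adjusted p = 0.845) with Fos. Without the same 2 arrays r was higher for all 9 lists, for example 0.558 against 0.133 over all 10 arrays for astrocyte markers and 0.487 against 0.094 for basolateral amygdala markers.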

How the data were processed

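The deposited matrix gives a log2 value for each probe set on each array. The authors computed these values by RMA with Affymetrix Expression Console, per the submitters' processing notes. The versions of both and the build behind the array annotation were not given in the sources used. Scanner files were not used here, so no other background correction was run.

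Gene levels were means of probe sets with 1 symbol and a mean above 4.94, the median of all probe sets, with a minimum of 3 for each gene. The genotypes were compared over all 16367 genes with limma 3.58.1 in R 4.3.3, with tables read by data.table (version 1.17.8), two-sided, Benjamini-Hochberg threshold 0.05, without covariates. Each array is read as a separate pool of 3 of the 15 animals per genotype. Arrays correlated at 0.958 to 0.987 with each other, and precision is limited by their number, 5 per genotype. Pair correlations used values centred within genotype and exact permutation within genotype. Replicate numbers were not taken to pair the arrays. The procedure was tested on simulated data.

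The 10 members, the lists and the tests were chosen with earlier results of these data known. Named genes are the 10 members, the 10 genes most like their mean profile, and the 4 of smallest p in each list; genes named for their correlation with Fos or the profile were chosen after their values were seen. Alternatives covered normalization, centring, intensity filters, summaries over probe sets, covariates, array weights, variance priors, array subsets and the replicate block; those for Klk8 and for the spread were added after seeing the data.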

Additional observations from a re-analysis of the deposited data

Results flagged for a closer look

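Single arrays far from the rest of their genotype were sought in 74 groups of 5 arrays, and 4 were found, where chance gives about 5% of groups. Nr4a1 was at 8.63 on knockout array 2, and the other 4 knockout arrays lay between 8.46 and 8.48. Nrn1 was at 10.83 on knockout array 4, where the next array was at 10.61. Grin2a was at 9.60 and Cacna1d at 8.32 on knockout array 3, with the next arrays at 9.42 and 8.16.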

How the results depend on the processing

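The count of changed immediate early genes was 0 in all 22 alternatives (smallest limma adjusted p = 0.334, for Ptgs2), and that of changed probe sets was 0 in all 18 run. Of the 10 gene differences, 7 kept their sign in every alternative that gave a value. The others turned without a call: Fos was at 0.16 with the median over probe sets and at 0.025 without knockout array 1, Arc at 0.012 without knockout array 1, and Junb at 0.013 without knockout array 3. With the median over probe sets Arc was at -0.26. Leaving out 1 array at a time gave -0.12 to 0.025 for Fos, -0.10 to 0.012 for Arc and -0.16 to 0.013 for Junb. The median difference ranged from -0.10 to 0.01. Over all genes 4 passed, against 2 with at least 1 probe set per gene, 8 with the first principal component as a covariate, and 2 to 6 when 1 array was left out. Of the pairs, 2 passed, against 1 without the intensity filter, 0 with the stricter filter, 0 with the median over probe sets, 0 with median polish, 0 without wild-type arrays 4 and 5, 1 with values not centred within genotype, and 0 to 3 when 1 array was left out. Under the stricter filter Fos and Egr2 had too few probe sets for a value. With fewer arrays, fewer arrangements exist to permute. With the median over probe sets, r for Fos with Egr1 was -0.048. The cause was not tested for the summaries over probe sets.

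With the replicate block, 0 immediate early genes (smallest limma adjusted p = 0.360), 0 of their probe sets, 3 genes in all and 0 pairs passed, the pairs then resting on 5 differences (r = 0.934 for Fos with Egr1 and 0.970 for Fos with Arc). Arrays with the same replicate number correlated at 0.28, 0.08, 0.27, 0.41 and 0.24, and 7 of 10 correlated best with their own number. The median over the Klk8 probe sets gave -0.61 (exact permutation p = 0.0794).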
